A study of Homo sapiens with 15 samples.

Results

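Cyclin D1 and the genes that carry cells from G1 into S phase were followed in RNA-seq of HCC95 cells in which 1 of 4 transcription factors had been knocked down. The 10 genes were picked by name out of the 61544 in the count table: the D cyclins CCND1, CCND2 and CCND3, the E cyclins CCNE1 and CCNE2, the kinases CDK2, CDK4 and CDK6, the retinoblastoma gene RB1, and LTO1, whose annotated span runs into CCND1. They were picked with differences between these groups already known, so their values are given as a description, with no p-value for any of them. HCC95 is an established human cell line of lung squamous cell carcinoma (LUSC), a cancer whose cells resemble the keratin-rich lining of stratified epithelia, and the labels call it lung epithelial. Small interfering RNAs (siRNAs), short duplexes that direct the cleavage of a matching mRNA, were aimed at TP63 (siTP63b), SOX2 (siSOX2b), KLF5 (siKLF5b) or GRHL2 (siGRHL2a), and siNC1 was the negative control. Each of the 5 groups held 3 libraries and each factor 1 siRNA, so an effect of the factor and an effect of that siRNA on other transcripts cannot be told apart. The labels do not say whether the 3 libraries of a group came from separate transfections.

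D cyclins are made in response to growth signals and switch on CDK4 and CDK6, which begin the phosphorylation of the retinoblastoma protein. Once phosphorylated, that protein releases the E2F factors, which turn on E cyclins and the genes of DNA replication, and cyclin E with CDK2 completes the step. CCND1 lies in a stretch of chromosome 11, band q13, that is gained in many squamous carcinomas, and it is a much-studied oncogene of that tumour type.

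Library totals ran from 15655495 to 34229063 counts. Each targeted gene had its lowest mean in its own knockdown. TP63 averaged 363 CPM (counts per 1000000 counts of the library, on library sizes scaled by the TMM method) against 682 in siNC1. The means were 8.97 against 73.3 for SOX2, 72.5 against 113 for KLF5 and 91.3 against 135 for GRHL2. The log2 fold changes of KLF5 (-0.64) and GRHL2 (-0.56) were short of the fold threshold given below. GRHL2 was little higher in siSOX2b, at 100.2 CPM. SOX2 was also below siNC1 in siTP63b (29.5 CPM) and siGRHL2a (20.2 CPM). For TP63, SOX2 and GRHL2 the comparison with siNC1 crosses the sets of columns described below. In every group all 10 squamous epithelial markers were above 1 CPM on average. Keratin gene KRT5 was at 4680 CPM or more in every library. Of 8 markers of alveolar and secretory lung epithelium 2 averaged above 1 CPM, NKX2-1 and AGER, and SFTPC was at most 0.0915 CPM. NKX2-1 averaged 2.53 CPM in siNC1, 2.43 in siKLF5b, 5.55 in siTP63b, 8.49 in siSOX2b and 10.01 in siGRHL2a. AGER ranged from a mean of 4.65 CPM in siNC1 to 7.45 in siGRHL2a. Among the immune, fibroblast, endothelial and neuroendocrine lists, between 0 and 2 markers a group averaged 1 CPM or more. The immune marker CD68 had means from 22.6 CPM in siKLF5b to 34.6 in siGRHL2a, and PTPRC reached 1.01 in siSOX2b. The endothelial marker VWF ran from 3.55 CPM in siSOX2b to 14.5 in siNC1. Fibroblast markers COL1A1 and PDGFRB averaged 2.12 to 5.22 and 1.23 to 3.23 CPM. The columns of siTP63b, siSOX2b and siGRHL2a, below called the second set, carry another form of name than those of siNC1 and siKLF5b, and between 66.1% and 69.0% of their counts from 20 to 500 were even numbers, against 49.7% to 50.7% in the other 6 libraries. Between 19.7% and 21.8% of all tested genes passed the thresholds between these 3 knockdowns and siNC1. Since no siNC1 library is in the second set, and these 3 knockdowns are only there, knockdown and set of columns cannot be told apart. The comparisons described in depth are therefore siKLF5b against siNC1, and siTP63b, siSOX2b and siGRHL2a with each other.

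CCND1, at chr11:69641156-69654474 on the plus strand (hg38), was the most abundant of the 10 genes per kilobase of merged exon in every group, and its level in siKLF5b was 35.4% of that in siNC1. The siNC1 libraries stood at 1165, 1167 and 1168 CPM, and those of siKLF5b at 403, 414 and 421 CPM. The siTP63b libraries were at 1502, 1431 and 1457 CPM, those of siSOX2b at 1173, 1181 and 1112 CPM, and those of siGRHL2a at 1032, 994 and 1009 CPM. The 3 siKLF5b libraries thus lay far below the other 12, siTP63b lay above all others, and in the order of the means only the neighbours siSOX2b and siNC1 overlapped. The log2 fold change (log2FC) of siKLF5b against siNC1 was -1.50 ± 0.04 (standard error of the edgeR fit), a level 2.83-fold lower. In bulk RNA fewer transcripts per cell and fewer cells with the transcript cannot be told apart. The summed level of the 10 squamous markers, most of it KRT5, was also lower in siKLF5b, at 6555 to 7607 CPM against 10552 to 12085 in siNC1. Of these markers 8 had a lower mean in siKLF5b and 2 a higher one, SOX2 at 107 against 73.3 CPM and DSG3 at 134 against 116 CPM, and their part in the CCND1 value was not tested.

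**Figure D1:**
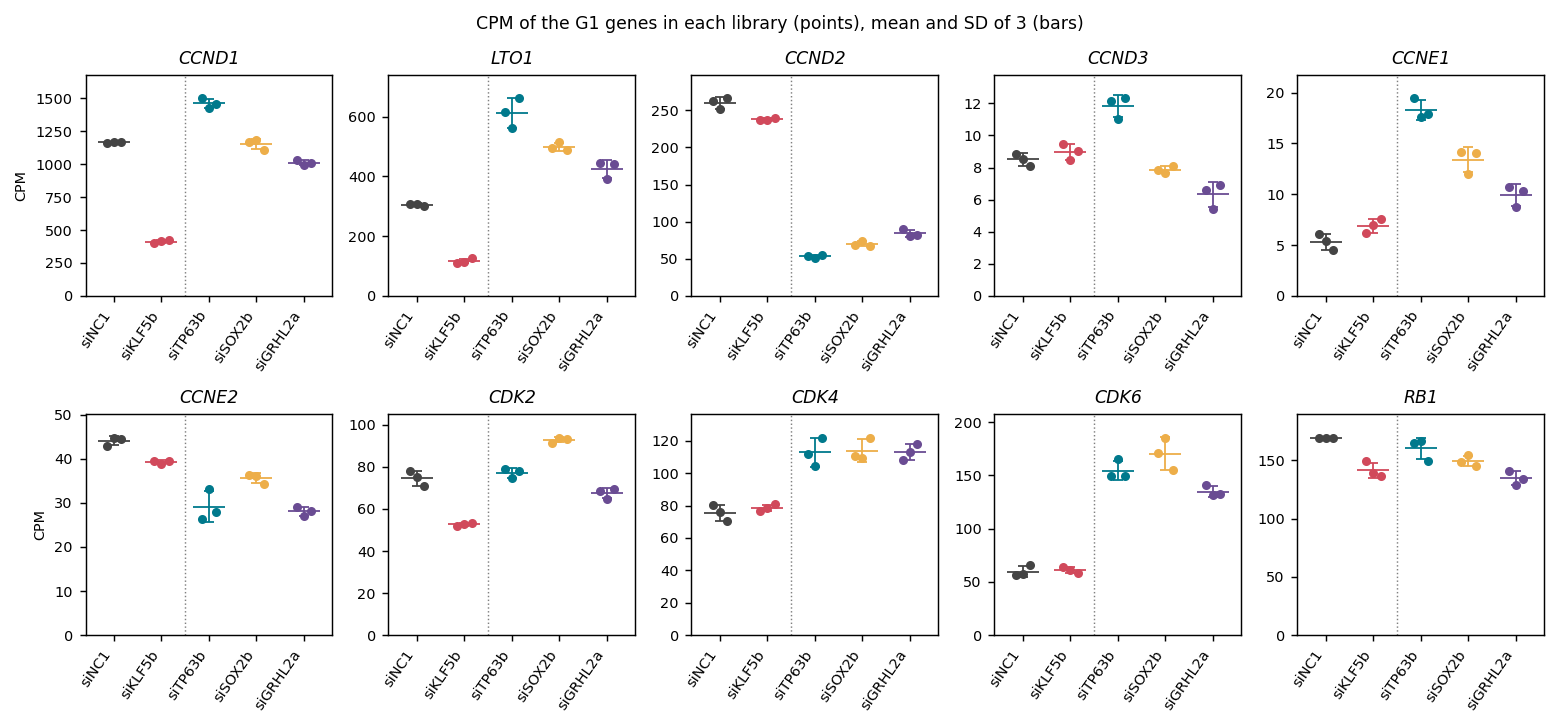
CPM of the 10 G1 genes in each library (points) with the mean and SD of the 3 libraries of a group (bars); the dotted line parts the 2 sets of columns, and each panel has its own axis from 0. CCND1 and LTO1 are lowest in siKLF5b, while CCND2, CDK4 and CDK6 differ mainly across the dotted line. CCNE1 differs both across the line and within the second set.

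LTO1 is an adaptor in the loading of an iron-sulphur cluster onto the ribosome recycling factor ABCE1. It followed the same course as CCND1 within each set of columns. It stood at 308, 309 and 300.1 CPM in siNC1 and at 112, 114 and 126 CPM in siKLF5b. In siTP63b it was at 616, 562 and 662 CPM, in siSOX2b at 494, 514 and 487 CPM, and in siGRHL2a at 445, 391 and 440.2 CPM. No 2 groups that were neighbours in the order of the means overlapped, siKLF5b was lowest and siTP63b highest, and siNC1 here lay below the other 3 knockdowns. The log2FC of siKLF5b against siNC1 was -1.39 ± 0.06.

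The 2 genes share ground and reads. LTO1 is annotated at chr11:69653076-69675416 on the minus strand, and its end covers 1399 bases of CCND1, all of them in the last of the 5 exons of CCND1's reference transcript, past the coding sequence in the 3′ untranslated region. That stretch makes up 33% of the 4238-base CCND1 mRNA. Only 3 of the 18 annotated LTO1 transcripts reach it, and the reference LTO1 transcript ends 11088 bases away from CCND1. In the deposited table, a gene that encloses another one on the opposite strand had at least the inner gene's count in every library for 2290 of 2290 such pairs, so reads in an overlap entered the counts of both genes whatever their strand. The LTO1 count was 25.7% to 26.5% of the CCND1 count in siNC1, 27.6% to 29.8% in siKLF5b, and between 39.3% and 45.4% in the other 9 libraries. This proportion was higher in all 3 siKLF5b libraries than in any of siNC1, by 2.17 percentage points in the mean, and it overlapped among siTP63b, siSOX2b and siGRHL2a. How much of the LTO1 count came from CCND1 transcripts, or of the CCND1 count from LTO1 transcripts, was not tested, and the LTO1 value cannot be read as an independent one.

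**Figure D2:**
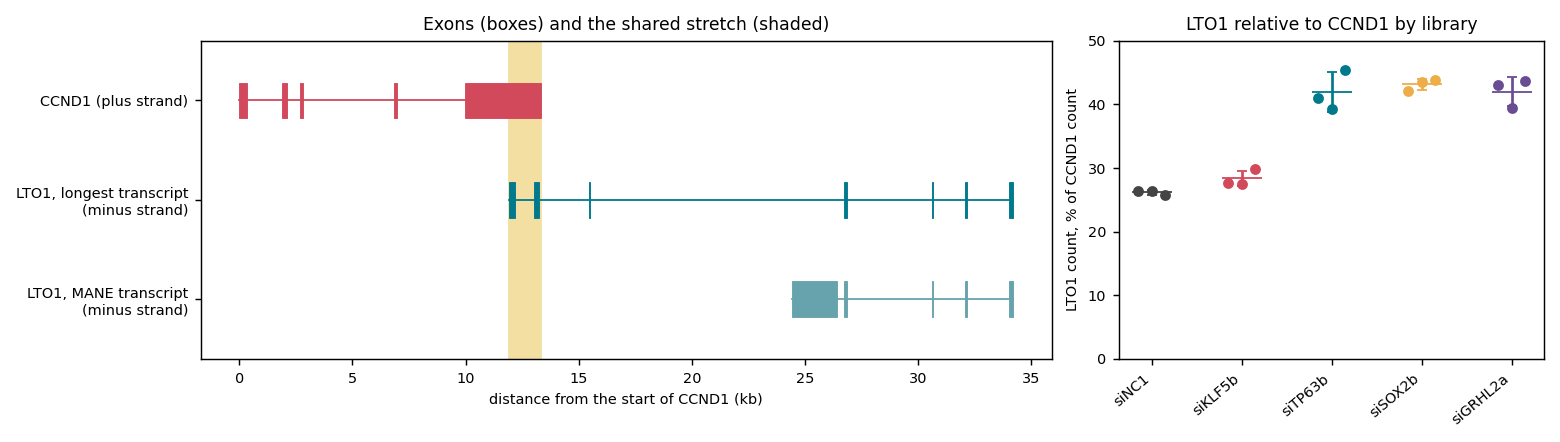
Left, exons (boxes) of CCND1 and of the longest and the reference (MANE) LTO1 transcripts against the distance from the start of CCND1 in kb, with the 1399 shared bases shaded; right, the LTO1 count as a percentage of the CCND1 count in each library, with the mean and SD of 3. The shaded stretch lies at the end of CCND1's last exon, and the percentage is below 30 in siNC1 and siKLF5b and above 39 in the other 3 groups.

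The other D cyclins did not follow CCND1. CCND2, at chr12:4269771-4305353 (plus strand), stood at 262, 252 and 266 CPM in siNC1 and at 238, 237 and 240.3 CPM in siKLF5b. It was at 54.1, 51.4 and 55.2 CPM in siTP63b, at 68.8, 74.3 and 67.8 CPM in siSOX2b, and at 90.2, 81.3 and 82.5 CPM in siGRHL2a. No neighbouring groups overlapped, and the 3 knockdowns of the second set lay at 20.6% to 32.5% of siNC1. The log2FC of siKLF5b against siNC1 was -0.13 ± 0.05, short of the 0.75 threshold. A second annotated gene on the same strand, ENSG00000285901, overlaps CCND2, and its count was 112% to 164% of the CCND2 count. The shared reads cannot be assigned.

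CCND3, at chr6:41934934-42050357 (minus strand), was the least abundant of the 3. Its level was 8.87, 8.56 and 8.09 CPM in siNC1 and 9.47, 8.47 and 9.03 CPM in siKLF5b, and these overlapped. It was highest in siTP63b, at 12.2, 11 and 12.3 CPM. It stood at 7.83, 7.67 and 8.09 CPM in siSOX2b, below the means of siKLF5b and siNC1, and was lowest in siGRHL2a at 6.61, 5.43 and 6.94 CPM. Of the second set, no 2 groups overlapped, and the log2FC of siTP63b against siGRHL2a was 0.90 ± 0.11.

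The length that the count table gives equals the genomic span, introns included, for all 61544 genes. Where a gene encloses another, on either strand, the outer had at least the inner count in every library for 3554 of 3554 pairs. Counts were thus taken over whole spans, introns included, and division by exon length credits intron reads to exons. Levels set between genes depend on which length is used, and shares are given per kilobase of merged exon and then of span. Per kilobase of exon the D cyclins together gave 279 ± 0.974 CPM per kb in siNC1 and 118 ± 2.08 in siKLF5b (SD, n = 3). CCND1 made up 87.8% of that sum in siNC1 and 73.4% in siKLF5b, where the share of CCND2 was 25.3% against 11.7%. In siTP63b, siSOX2b and siGRHL2a the sums were 316, 253 and 224 CPM per kb, and CCND1 held 97.2%, 96.0% and 94.8% of them. Per kilobase of span the share of CCND1 was 92.2% in siNC1 and 82.1% in siKLF5b, and that of CCND2 7.70% and 17.7%. On both scales CCND1 was the main D cyclin in all 5 groups, and the share of CCND2 was highest in siKLF5b.

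CCNE1, whose product drives CDK2, lies at chr19:29811991-29824312 (plus strand) and overlaps no other gene of the table. It stood at 6.07, 5.38 and 4.53 CPM in siNC1 and at 6.18, 6.99 and 7.57 CPM in siKLF5b. It was at 19.5, 17.6 and 17.9 CPM in siTP63b, at 14.1, 12 and 14.1 CPM in siSOX2b, and at 10.7, 8.74 and 10.4 CPM in siGRHL2a. The order was siNC1, siKLF5b, siGRHL2a, siSOX2b and siTP63b, and no neighbours in it overlapped, though the gap between the first 2 groups was the narrow one from 6.07 to 6.18 CPM. The log2FC was 0.37 ± 0.13 for siKLF5b against siNC1, 0.88 ± 0.11 for siTP63b against siGRHL2a and 0.46 ± 0.11 for siTP63b against siSOX2b.

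CCNE2, the second E cyclin, ran the other way across the sets of columns. It was at 42.9, 44.8 and 44.4 CPM in siNC1 and at 39.4, 38.8 and 39.5 CPM in siKLF5b. It was at 26.3, 33.1 and 27.8 CPM in siTP63b, at 36.3, 36.2 and 34.2 CPM in siSOX2b, and at 29.1, 26.9 and 28.2 CPM in siGRHL2a, so that siTP63b and siGRHL2a overlapped and siSOX2b lay above both. Per kilobase of exon, CCNE1 made up 17.8% of the E cyclin transcripts in siNC1, 23.9% in siKLF5b, 38.7% in siGRHL2a, 40.2% in siSOX2b and 53.1% in siTP63b. Per kilobase of span these shares were 14.2%, 19.4%, 32.6%, 34.0% and 46.5%, in the same order of groups, so which E cyclin had the higher level in siTP63b depends on the length used. INTS8 and NDUFAF6 overlap the ends of CCNE2 on the opposite strand with 280% and 127% of its summed counts, so part of its count may be theirs, and that part was not tested.

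The promoter stretches of CCNE1 and LTO1 are shown in lower case with each GC box in capitals. A GC box is GGGCGG or its reverse complement CCGCCC, a motif of the SP and KLF factors. The 5 groups of CCNE1 lay apart, and it overlaps no other gene. Levels of LTO1 ran with those of CCND1 within each set of columns, and the 2 genes share reads. CCNE1 is given for the 250 bases before its start, chr19:29811741-29811990 (plus strand), and LTO1 for chr11:69675417-69675603 (minus strand, 187 bases before the outermost annotated LTO1 exon), both from RefSeq on GRCh38.p14 and written 5′ to 3′.
CCNE1: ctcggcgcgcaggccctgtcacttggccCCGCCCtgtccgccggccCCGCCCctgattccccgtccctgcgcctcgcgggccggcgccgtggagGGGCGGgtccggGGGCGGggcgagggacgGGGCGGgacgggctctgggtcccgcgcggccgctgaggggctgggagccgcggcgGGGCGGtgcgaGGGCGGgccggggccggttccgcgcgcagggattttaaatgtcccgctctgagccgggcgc
LTO1: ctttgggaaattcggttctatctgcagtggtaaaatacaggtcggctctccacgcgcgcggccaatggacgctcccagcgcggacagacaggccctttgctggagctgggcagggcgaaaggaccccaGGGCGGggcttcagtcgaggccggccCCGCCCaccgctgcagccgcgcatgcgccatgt
CCNE1 holds 7 GC boxes and LTO1 holds 2, while neither holds CACCC or its reverse complement GGGTG, the other motif searched on both strands, and letters could belong to both motifs. A RefSeq promoter was matched for 6 of the 10 genes, among them CCND3, CDK4, CDK6 and RB1, and not for CCND1, CCND2, CCNE2 and CDK2. The 6 genes have 9 entries, of which 6 held a GC box and 6 a CACCC box in the 250 bases before the start, beside 42.6% and 54.7% of 35116 promoters, and entries of 1 gene are not independent. The RB1 entry starts 172706 bases inside the gene and holds neither. Entries with a motif also lay away from the annotated gene start. Those of CCND3 were 1669, 108549 and 111152 bases from it, that of CDK4 3703 and a CDK6 entry 2614, and all are counted here. These matches describe letters and not binding.

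CDK2, the partner of the E cyclins, stood at 77.9, 75 and 70.8 CPM in siNC1 and at 52.0, 52.9 and 53.2 CPM in siKLF5b. The other groups were at 78.9, 74.6 and 77.9 CPM in siTP63b, 91.4, 93.9 and 93.4 CPM in siSOX2b, and 68.4, 64.7 and 69.3 CPM in siGRHL2a. siKLF5b was lowest and siSOX2b highest, both clear of their neighbours, while siNC1 and siTP63b overlapped. The log2FC was -0.50 ± 0.05 for siKLF5b against siNC1 and 0.46 ± 0.05 for siSOX2b against siGRHL2a. CDK2, at chr12:55966781-55972789 (plus strand), lies wholly within the annotated span of PMEL on the other strand, and the PMEL count was 101% to 102% of the CDK2 count in every library, so that nearly every read of PMEL was one also given to CDK2.

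The cyclin D kinases CDK4 and CDK6 differed more between the 2 sets of columns than within them. CDK4, at chr12:57747727-57756013 (minus strand), was at 80.2, 76.2 and 70.5 CPM in siNC1, 76.4, 78.3 and 80.7 in siKLF5b, and between 104 and 122 CPM in the other 9 libraries. Its log2FC was 0.05 ± 0.06 for siKLF5b against siNC1 (95% interval -0.07 to 0.18), and the 3 differences within the second set lay between -0.01 and 0.01. CDK6, at chr7:92604921-92836573 (minus strand), was at 56.3 to 65.9 CPM in siNC1 and 58.5 to 64.0 in siKLF5b, and its log2FC between them was 0.03 ± 0.07 (95% interval -0.11 to 0.17). It stood at 149, 165 and 149 CPM in siTP63b, at 171, 186 and 155 CPM in siSOX2b and at 141, 131 and 132 CPM in siGRHL2a, and siTP63b and siSOX2b overlapped while siGRHL2a lay below both. Per kilobase of exon CDK4 exceeded CDK6 in all groups, and CDK6 made up 16.7% of their sum in siNC1, 16.5% in siKLF5b, 25.8% in siTP63b, 27.5% in siSOX2b and 23.2% in siGRHL2a. Per kilobase of span CDK6, a gene with long introns, made up only 2.77%, 2.71%, 4.70%, 5.11% and 4.10%, in the same order of groups. TSPAN31 overlaps CDK4 with 44.8% to 73.4% of its count.

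RB1, the gene of the protein these kinases phosphorylate, at chr13:48303744-48599436 (plus strand), had the narrowest range of group means by fold. It ranged from 169.1 to 169.4 CPM in siNC1, 136 to 149 in siKLF5b, 149 to 166 in siTP63b, 145 to 154 in siSOX2b and 129 to 141 in siGRHL2a. The siNC1 libraries lay above all others, and every other pair of neighbours in the order overlapped. The log2FC of siKLF5b against siNC1 was -0.26 ± 0.05.

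**Figure D3:**
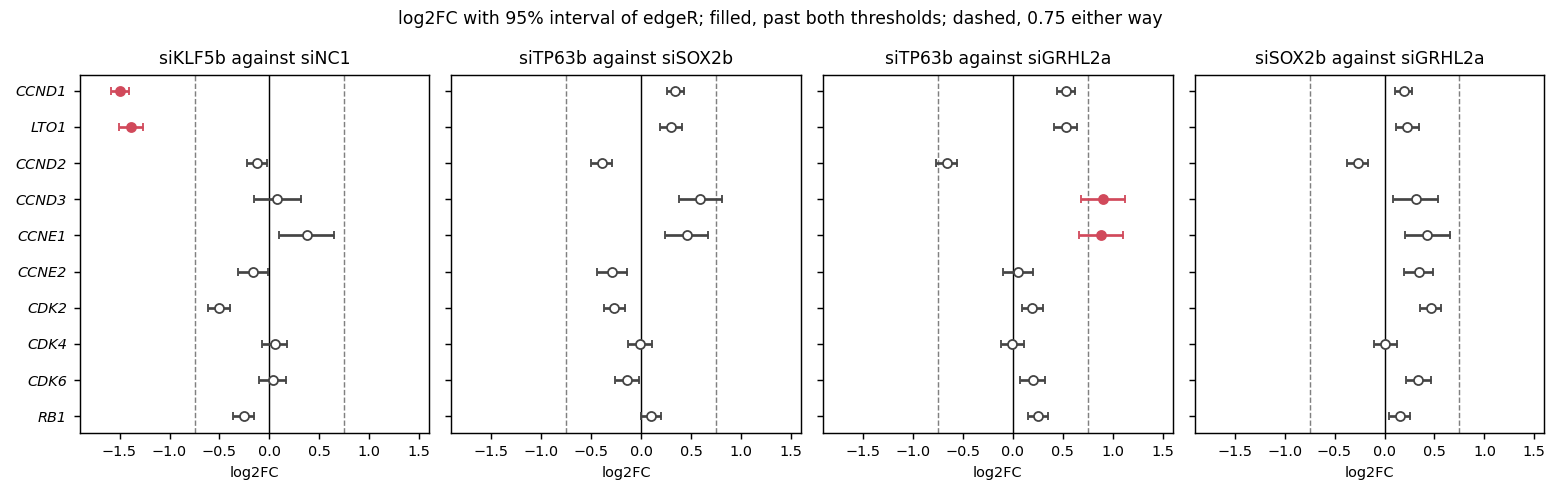
log2FC of each of the 10 genes with its 95% interval from edgeR in the 4 comparisons within a set of columns; filled points passed both thresholds, and dashed lines mark 0.75 in either direction. CCND1 and LTO1 stand apart in siKLF5b against siNC1, and CCND3 and CCNE1 pass the line in siTP63b against siGRHL2a.

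A gene was counted as differentially expressed at an adjusted p below 0.05 with an absolute log2FC above 0.75. In siKLF5b against siNC1 2 of the 10 genes, CCND1 and LTO1, passed and were lower, beside 1.37% of the 25108 genes tested that were called lower and 3.26% called in either direction. In siTP63b against siGRHL2a 2 passed, CCND3 and CCNE1, both higher, beside 2.18% of all genes called higher and 5.39% called in either direction. In siTP63b against siSOX2b and siSOX2b against siGRHL2a 0 passed, by edgeR as by DESeq2, beside 6.7% and 3.32% of all genes. At an unadjusted p below 0.05 the edgeR test held 8 and 9 of the 10, beside 10215 and 8862 of the 25108 genes tested. Without the fold threshold the adjusted p alone called 5, 7, 8 and 9 of the 10 in siKLF5b against siNC1, siTP63b against siSOX2b, siTP63b against siGRHL2a and siSOX2b against siGRHL2a, beside 23.2%, 31.8%, 27.1% and 24.5% of all genes. Against siNC1 it called 8, 8 and 10 in siTP63b, siSOX2b and siGRHL2a, beside 54.1%, 55.4% and 54%. The CPM of the groups compared did not overlap for 7, 7, 8 and 9 of the 10 in the first 4 comparisons, beside 42.5%, 38.3%, 35.6% and 35.2% of all genes. The median log2FC of the 10 was -0.15 in siKLF5b against siNC1, 0.04 and 0.22 in siTP63b against siSOX2b and siGRHL2a, and 0.27 in siSOX2b against siGRHL2a, beside medians of all tested genes between -0.02 and 0.00. Nothing is read from these counts, since the genes were picked on these comparisons.

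Within the second set the same order, siTP63b above siSOX2b above siGRHL2a, held for the means of CCND1, LTO1, CCND3, CCNE1 and RB1. CCND2 had the opposite order. CCND1 was 1.45-fold higher in siTP63b than in siGRHL2a (log2FC 0.53 ± 0.04) and 1.27-fold higher than in siSOX2b (0.34 ± 0.04), and CCND2 was 1.58-fold lower in siTP63b than in siGRHL2a (-0.66 ± 0.05). Both stayed below the fold threshold. The comparisons share libraries, so their values are set side by side only.

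Against siNC1, with the set of columns and the knockdown not separable, CCND2 was called lower and CCNE1 and CDK6 higher in each of siTP63b, siSOX2b and siGRHL2a, and LTO1 was called higher in siTP63b. The share of all genes called was 20.7%, 21.8% and 19.7%. The log2FC of CCND2 was -2.28, -1.89 and -1.62 in that order, that of CCNE1 1.79, 1.33 and 0.90, and that of CDK6 1.37, 1.51 and 1.17, each with a standard error from 0.05 to 0.12. For CCND1 the values were 0.33 ± 0.04, -0.01 ± 0.04 and -0.21 ± 0.04, and for LTO1 1.01 ± 0.06, 0.71 ± 0.06 and 0.48 ± 0.06.

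The other genes of the pathway were taken from lists chosen, like the 10 genes, with earlier results of these data known. From these lists, genes were named by their adjusted p in the same comparisons. The adjusted p-values printed for list genes here and below are therefore a description and give no separate support. Of 7 CDK inhibitors 5 had enough counts to be tested, and in siKLF5b against siNC1 2 fell, beside 1.37% of all genes tested. CDKN1A, the p21 inhibitor that p53 induces and that also helps cyclin D assemble with its kinase, was at 12.1, 11.1 and 9.60 CPM in siNC1 and at 4.39, 4.36 and 3.82 CPM in siKLF5b. Its log2FC was -1.38 ± 0.12 (edgeR quasi-likelihood test, adjusted p = 2.4e-10), and the groups did not overlap. CDKN1C, the p57 inhibitor, had a log2FC of -0.94 ± 0.30 (edgeR quasi-likelihood test, adjusted p = 0.022) at a mean of only 1.78 CPM in siNC1. This call was lost without siNC1 replicate 1, without siNC1 replicate 2 and without siKLF5b replicate 1. CDKN1B, the p27 inhibitor, was at a log2FC of -0.32 ± 0.06, short of the fold threshold. CDKN2A and CDKN2B, the inhibitors of CDK4 and CDK6 encoded side by side, had 1 count each in 1 library and 0 in the other 14, where 3 counts, the limit that a count of 0 allows, are 0.0876 to 0.192 CPM of the raw total.

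Among the RB family and E2F factors 0 of 12 were called in siKLF5b against siNC1, among the E2F target genes of G1/S 0 of 24, and among the genes of cyclin turnover and CDK activation 0 of 16, by edgeR as by DESeq2. With 3.26% of all genes called in that comparison, a list of this size would hold few or none. At an unadjusted p below 0.05 the edgeR test held 8, 14 and 5 of them, beside 33.3% of all genes. The E2F targets ranged in log2FC from -0.45 (MCM4, of the replicative helicase, at 314 CPM in siNC1 and 230.2 in siKLF5b) to 0.33, with a median of 0.06, beside a median of -0.01 over all genes. Of the 24 targets 10 were below 0 and 14 above, and 11 had an adjusted p below 0.05 at these small folds, beside 23.2% of all genes. Whether the values of these targets depend on the level of CCND1 was not tested.

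**Figure D4:**
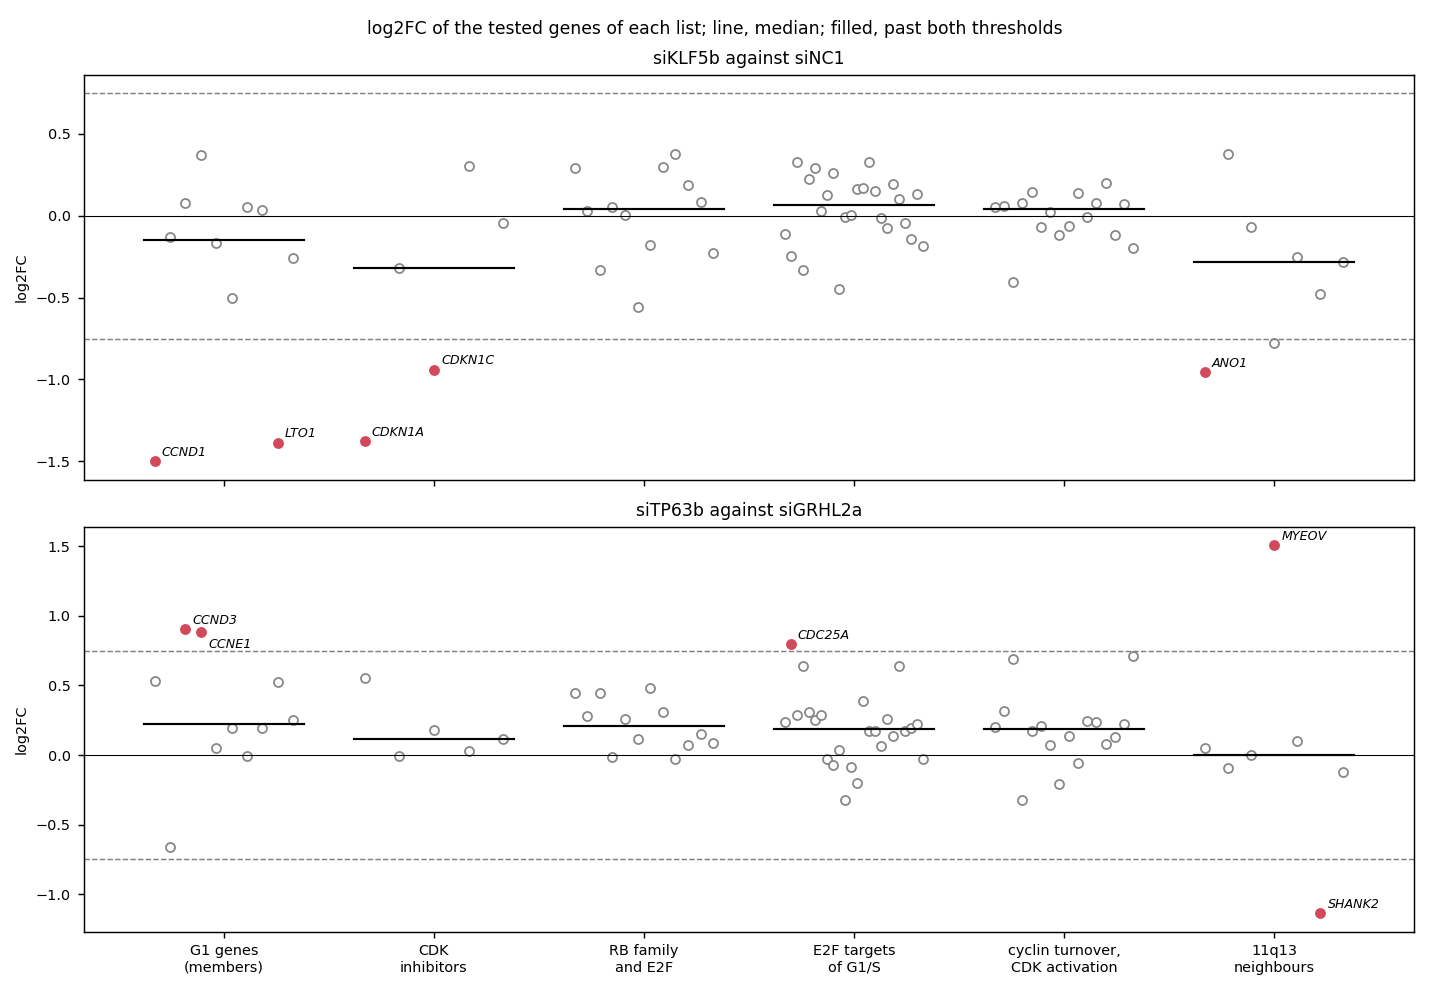
log2FC of the tested genes of each list in siKLF5b against siNC1 (top) and siTP63b against siGRHL2a (bottom); the black line is the median of the list, filled and named points passed both thresholds, and dashed lines mark 0.75 in either direction. In siKLF5b the E2F targets and the RB and E2F genes scatter around 0, while CCND1, LTO1, CDKN1A, CDKN1C and ANO1 lie below the lower line.

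In siTP63b against siSOX2b 1 of 12 RB and E2F genes rose, beside 3.88% of all genes: E2F2, an activating E2F factor, at 12.9, 12.3 and 13.1 against 6.66, 7.12 and 6.81 CPM (log2FC 0.89 ± 0.10, edgeR quasi-likelihood test, adjusted p = 2.5e-08). In siTP63b against siGRHL2a 1 of 24 E2F targets rose, beside 2.18% of all genes: CDC25A, the phosphatase that activates CDK2, at a mean of 33.2 against 19.1 CPM (log2FC 0.79 ± 0.07, edgeR quasi-likelihood test, adjusted p = 3.5e-10). Without siGRHL2a replicate 2 its log2FC was 0.74 and the call was lost. In siSOX2b against siGRHL2a 0 genes of the 5 lists were called by either tool.

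Against siNC1 more genes of the lists and of the whole table were called in the second set, each named one with an adjusted p of 0.029 or less by the edgeR quasi-likelihood test, and set and knockdown cannot be told apart in any of them. E2F1, the activating factor most tied to S phase entry, was higher in siTP63b, siSOX2b and siGRHL2a, with means of 35.9, 40.1 and 26.3 against 14.1 CPM (log2FC 1.34, 1.51 and 0.90). E2F5, an E2F factor that acts mainly as a repressor, was lower, at 17.2, 14.1 and 14.3 against 45.7 CPM (log2FC -1.41, -1.70 and -1.68), and RBIS overlaps it with 146% of its counts. E2F targets were higher in 6 of 24 in siTP63b and in 2 of 24 in each of siSOX2b and siGRHL2a, and 0 were lower, beside 11.4%, 11.6% and 11.7% of all genes called higher in the 3 comparisons. The counts in siSOX2b and siGRHL2a are no larger than those shares would give. CDT1, an origin licensing factor, had a log2FC of 1.78, 1.57 and 1.47 in the 3 knockdowns, and UHRF1, which maintains DNA methylation, had 1.01, 0.91 and 1.04. In siTP63b RRM2 and TK1, which make nucleotides, and MYBL2, a cell cycle transcription factor, were higher by 1.00, 0.78 and 0.84 on the log2 scale. The call of TK1 was lost with upper-quartile scaling and without siNC1 replicate 2 or siNC1 replicate 3. Among the genes of cyclin turnover, GSK3B, a kinase that marks cyclin D1 for breakdown, was higher in all 3 (log2FC 1.05, 0.80 and 0.82). CKS1B, a cofactor of p27 breakdown, was lower in all 3 (log2FC from -0.90 in siTP63b to -1.11 in siGRHL2a), and CDC25B, a CDK phosphatase, was higher in siTP63b (0.96). The inhibitor CDKN2D was higher in siSOX2b (0.98), a call lost without siNC1 replicate 1.

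Of 11 neighbours of CCND1 in the same chromosome band 7 were tested, and 1 fell in siKLF5b, beside 1.37% of all genes: ANO1, a chloride channel gene, at 2.22, 2.74 and 2.47 CPM in siNC1 and 1.01, 1.15 and 1.78 CPM in siKLF5b (log2FC -0.96 ± 0.22, edgeR quasi-likelihood test, adjusted p = 0.0013). The 7 ranged from -0.96 to 0.38 with a median of -0.29, against -1.50 for CCND1. In siTP63b against siGRHL2a MYEOV was higher (log2FC 1.51 ± 0.43, edgeR quasi-likelihood test, adjusted p = 0.0077), with means of 0.860 and 0.301 CPM and a call lost without siGRHL2a replicate 1. ENSG00000260877 overlaps it with 206% of its counts. SHANK2 was lower, as were 3.21% of all genes (log2FC -1.14 ± 0.08, edgeR quasi-likelihood test, adjusted p = 4.6e-13). Against siNC1 ANO1 was higher in siTP63b, siSOX2b and siGRHL2a (log2FC 1.71, 1.90 and 1.66), the actin regulator CTTN in siSOX2b and siGRHL2a (0.92 and 0.84), FADD in siSOX2b (0.99), SHANK2 in siGRHL2a (1.22) and MYEOV in siTP63b (1.14). ENSG00000254721 overlaps FADD with 69.0% of its counts and CTTN-DT overlaps CTTN with 19.5%. The MYEOV call was lost with DESeq2, without a low-count filter, without siNC1 replicate 2 or siNC1 replicate 3, and without siTP63b replicate 1 or siTP63b replicate 2. FGF3, FGF4 and FGF19, also of that band, had at most 2 counts in any library.

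Genes were ranked by the Pearson correlation of their log2 CPM with that of CCND1 over the 15 libraries, each gene centred within its set of columns, for the 15345 genes that averaged 100 counts or more a library. LTO1 came first (r = 0.99), followed by RPA1, a subunit of the single-strand binding complex of replication (r = 0.99), FAM91A1 (r = 0.99), UHMK1, a serine/threonine kinase (r = 0.98), and CYP4F11, a cytochrome P450 (r = 0.98). The lowest were GANAB (r = -0.98), PERP, a desmosome gene (r = -0.97), and EMP2 (r = -0.97). CDKN1A ranked 8 of 15345 (r = 0.98). Without the centring UHMK1, RPA1, FAM91A1, CDKN1A and CAV2 led and LTO1 ranked 24 (r = 0.95). CYP4F11 then ranked 2628 (r = 0.62), and r was -0.33 for GANAB, -0.40 for PERP and -0.60 for EMP2. The points share the 5 groups and the normalization, so r is a description. RPA1 was at a mean of 205 CPM in siNC1, 143 in siKLF5b, 235 in siTP63b, 218 in siSOX2b and 204 in siGRHL2a, the same order of groups as CCND1 in all but the place of siNC1.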

How the data were processed

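Poly(A) RNA of HCC95 cells was reverse-transcribed with random hexamers and sequenced from both ends. According to the methods and the submitters' processing notes, the authors aligned the reads to hg38 with HISAT2 2.2.1 and deposited raw counts of uniquely aligned reads per gene from featureCounts 2.0.1 with Gencode v40. Whether strand was used, and whether reads or fragments were counted, is not given in the sources used here. Each of the 15 count columns could be tied to its library by name, and 0 were left out.

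Counts were analysed with edgeR 4.0.16 in R 4.3.3: TMM factors, the filterByExpr filter by group, one quasi-likelihood fit of all 15 libraries with a mean per group, and Benjamini-Hochberg adjustment over the 25108 genes tested. CPM use the TMM-scaled library sizes, apart from the limit set by 3 counts, which uses raw totals. Errors of log2FC are standard errors of that fit, and other errors are SD of 3 libraries. Replicate libraries differed by more than counting noise, with a chi-square per gene of 2.04 to 4.34 in siNC1 and siKLF5b. In siTP63b, siSOX2b and siGRHL2a, the libraries with the excess of even counts, it was 4.95 to 8.10. Adjusted p-values measure the spread between libraries, which may be technical. In simulated counts of 24530 genes for siKLF5b against siNC1, 200 of 200 genes changed by a log2FC of 1.5 were called, with 2 unchanged ones. No other fold was simulated, and 1.5 lies well above the threshold of 0.75, so high recovery was to be foreseen. Recovery was not split by count level. The simulation therefore cannot tell how often folds near 0.75, or changes in genes with few counts such as CDKN1C, are called.

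The 10 genes and all lists were chosen with earlier results of these data known, so adjusted p-values of list genes are descriptive. Named are the 10 genes, up to 5 called genes of each list per comparison by smallest adjusted p, the 5 genes most and the 3 least like CCND1, the targeted genes, and genes overlapping a member. Genes such as CDKN1B, MCM4, KRT5, SFTPC, CAV2, CDKN2A and the FGF genes were named after their values were seen. Exons for lengths and the CCND1 map came from Gencode v44, in which the 10 genes have the same spans, and promoters from RefSeq. Western blots were not used here.

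Results were recomputed with RLE or upper-quartile scaling, with a minimum of 10 counts in each library or without any filter, with DESeq2 1.42.0, with a fit of just the 6 libraries compared, with a log2FC threshold of 1 or none, with replicate numbers as a block, and by leaving out every library once. The LTO1 count relative to CCND1 and levels per kilobase of span were added after seeing the data.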

Additional observations from a re-analysis of the deposited data

How the results depend on the processing

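The comparisons are listed in the order siKLF5b against siNC1, siTP63b against siSOX2b, siTP63b against siGRHL2a, siSOX2b against siGRHL2a, and siTP63b, siSOX2b and siGRHL2a against siNC1. With the thresholds as stated, 818, 1682, 1354, 833, 5187, 5468 and 4952 genes were called, and 2, 0, 2, 0, 4, 3 and 3 of the 10 G1 genes. Without a fold-change threshold the counts were 5828, 7977, 6792, 6151, 13589, 13920 and 13553, with 5, 7, 8, 9, 8, 8 and 10 of the G1 genes. With an absolute log2FC above 1 they were 369, 1005, 826, 485, 3409, 3602 and 3230, and 0 of the G1 genes in siTP63b against siGRHL2a, where CCND3 and CCNE1 lost their call by the construction of the threshold. CCNE1 lost it likewise in siGRHL2a against siNC1, where 2 G1 genes were left. With at least 10 counts in every library, which leaves 19640 genes to test, 1090, 897 and 514 were called in the 3 comparisons of the second set. Leaving out each library in turn gave 699 to 852, 1546 to 1726, 1222 to 1411, 693 to 899, 4861 to 5292, 5033 to 5540 and 4560 to 5036 genes, and left the counts of G1 genes as they were. RLE and upper-quartile scaling, no low-count filter, only the 6 libraries compared and DESeq2 also kept every count within 1.5 times, and no call of a G1 gene changed direction under any alternative run. The log2FC of CCND1 in siKLF5b against siNC1 stayed between -1.52 and -1.48.

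Replicate numbers are shared across groups, but the deviations of same-numbered libraries correlated by -0.05 to 0.05, so the numbers give no pairing. With the replicate number as a block 805, 1667, 1345, 825, 5163, 5422 and 4933 genes were called, and the same numbers of G1 genes.

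CCNE1 and CCND3 rest on 98 to 596 and 142 to 373 counts a library and are the least precise of the 10. Reads shared between overlapping genes limit CCND1, LTO1, CCND2, CCNE2, CDK2 and CDK4, and to a lesser degree RB1 (LPAR6, 12.4% of its counts), at any depth. Shares set between genes moved with the length used, by fold the most for CDK6, where span replaced exon length after the data were seen.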
